A study of Mus musculus with 6 samples.

Results

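The genes described here are 42 mouse genes of the G2/M transition and of mitosis, chosen by name as a module, with earlier results of these data known, out of the 40202 genes listed in the table of normalised reads. They cover the mitotic cyclins and kinases, the activator and conjugating enzyme of the anaphase-promoting complex, the spindle checkpoint, mitotic kinesins, the kinetochore, chromosome structure, spindle assembly and cytokinesis. Total RNA was sequenced from BV2, an immortalised and dividing mouse microglial line of C57BL/6 background. The control group was 3 untreated samples, and the FL-ApoE4 group was 3 samples that received human full-length apolipoprotein E4 protein (25 µg/ml) over 5 h. The labels give both groups the same line and growth medium and do not state whether the untreated cells received the vehicle of the protein. Nor do they say that replicates came from separate cultures, and the p-values therefore describe variation among these samples that could be purely technical.

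A cell enters mitosis when cyclin B bound to the kinase CDK1 becomes active, a step that CDC25 phosphatases switch on. Condensed chromosomes then attach through their kinetochores to the spindle, and the spindle checkpoint holds the anaphase-promoting complex, a ubiquitin ligase, in check until every chromosome is attached. Most of these genes are transcribed in G2 and M and silenced in G1 through promoter elements bound by the DREAM complex, by B-MYB and FOXM1, and by NF-Y. Microglia in the adult brain divide rarely, whereas a line such as BV2 divides in culture. In these samples 41 of the 42 genes had a mean of at least 10 normalised reads. In bulk RNA, fewer cells in G2 and M and less transcript per such cell cannot be told apart.

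The promoters come first because shared elements are what joins these genes outside the measurements. RefSeq promoters of build GRCm38.p6, running from 250 bases before to 50 bases after the annotated start, were matched by symbol for 36 of the 42 genes and gave 39 promoters, since Bub3, Ect2 and Prc1 each have 2 overlapping ones. The 6 genes without an entry were Ccna2, Cdc25c, Aurkb, Kif20a, Smc4 and Tpx2. Both strands were searched for TTTGAA, the core of the cell cycle homology region (CHR) through which G2/M genes are silenced, and for CCAAT, the box bound by NF-Y. The CHR core was found in 30 of 39 promoters (76.9%), against 17.9% of all 32851 promoters of the same length, which include those of noncoding and predicted genes. CCAAT was found in 31 of 39 (79.5%) against 37.4%, and both together in 27 of 39 (69.2%) against 6.95%. A variant of the CHR core, TTCGAA, was found in 4 of 39 (10.3%) against 1.56%. The Sp1 box GGGCGG was found in 82.1% against 35.7%, while the E2F forms TTTGGCGC and TTTCCCGC were found in 5.13% and 2.56% of these promoters, against 0.514% and 1.07% of all. A match is a description of letters and not evidence of binding.

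The promoters of the cyclins and kinases show the arrangement. The 4 genes of that group with the lowest limma p and a single entry in the table are printed, from 170 bases before to 30 bases after the start, 5′ to 3′ on the strand of the gene. Capitals mark CCAAT or its reverse complement and TTTGAA, or TTTAAA where the printed stretch does not hold the former. This latter form was added to the search after the sequences were seen and was found in 25.6% of these promoters against 13.2% of all. Ccnb1 lies at chr13:100786457-100786656 on the minus strand, Cdk1 at chr10:69352883-69353082 on the minus strand, Plk1 at chr7:122159265-122159464 on the plus strand and Ccnb2 at chr9:70421525-70421724 on the minus strand, all in GRCm38.p6.
Ccnb1: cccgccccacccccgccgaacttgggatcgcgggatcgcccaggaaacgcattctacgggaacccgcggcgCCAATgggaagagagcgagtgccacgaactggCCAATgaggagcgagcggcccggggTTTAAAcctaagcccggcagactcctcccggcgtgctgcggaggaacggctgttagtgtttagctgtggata
Cdk1: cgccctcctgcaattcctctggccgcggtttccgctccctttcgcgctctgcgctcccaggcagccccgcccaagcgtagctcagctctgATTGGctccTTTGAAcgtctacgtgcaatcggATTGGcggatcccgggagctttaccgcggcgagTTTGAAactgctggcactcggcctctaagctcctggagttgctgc
Plk1: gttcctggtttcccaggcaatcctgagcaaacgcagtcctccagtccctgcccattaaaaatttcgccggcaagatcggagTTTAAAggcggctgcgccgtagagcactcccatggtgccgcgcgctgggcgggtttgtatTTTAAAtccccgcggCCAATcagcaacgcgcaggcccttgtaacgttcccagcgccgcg
Ccnb2: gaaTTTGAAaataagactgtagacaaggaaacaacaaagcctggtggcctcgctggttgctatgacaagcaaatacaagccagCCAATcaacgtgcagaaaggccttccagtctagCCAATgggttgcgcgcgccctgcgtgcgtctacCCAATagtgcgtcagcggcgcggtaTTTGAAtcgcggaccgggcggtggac

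With positions counted from 1 at the first transcribed base and from -1 just before it, Ccnb2 has CCAAT boxes whose first bases lie at -87, -54 and -21, followed by TTTGAA at 5, and a further TTTGAA at -167. In Cdk1, boxes on the opposite strand begin at -208, outside the printed stretch, and at -80 and -48, and TTTGAA at -71 and -15. Plk1 has a box at -14 and its TTTGAA at 31, just beyond the printed stretch. Ccnb1 has boxes at -99 and -67 and TTTAAA at -42, with no TTTGAA in the searched window. Over the 39 promoters, 26 of 38 CHR cores began within 50 bases of the start, against 20 of 67 CCAAT matches. Sites shared by the overlapping promoters of Bub3, Ect2 and Prc1 were counted in each promoter. The median log2 difference between the groups was -0.11 for genes with TTTGAA and -0.13 for those without it, so the 2 medians lay close together. Some genes without TTTGAA hold a variant, TTCGAA in Bub1 and Cdc25b and TTTAAA in Ccnb1, Cenpe and Birc5.

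**Figure D1:**
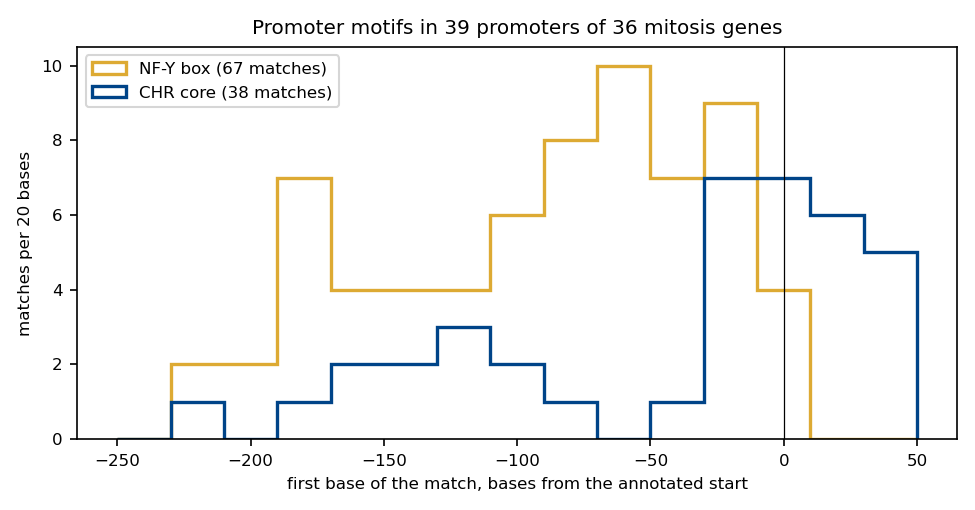
Positions of the CHR core and the NF-Y box in 39 promoters of 36 mitosis genes; the x axis is the first base of each match in bases from the annotated start, and the y axis is the number of matches per 20 bases. CHR cores gather at the start, where 26 of 38 begin within 50 bases, and NF-Y boxes lie mostly before it. Sites shared by the overlapping promoters of Bub3, Ect2 and Prc1 are counted in each promoter.

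After 5 h with FL-ApoE4 the mitosis genes were lower by a small amount and nearly all in the same direction. Values are the authors' normalised reads, and differences are on the log2(value + 1) scale, as FL-ApoE4 minus control, from a limma fit over all 14079 genes with a mean of at least 10. Of the 42 genes, 41 passed that filter and 38 of them had a difference below 0, as 49.7% of all tested genes did. The median difference of the 41 was -0.12 and that of all tested genes 0.00, with members between -0.31 (Mki67) and 0.03 (Cdc25b). No single gene passed the test: by limma, 0 members and 0 of 14079 genes (0%) had an adjusted p under 0.05, and edgeR also called 0.

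At an unadjusted p under 0.05, 15 of 41 members were lower and 0 higher, by limma and by edgeR. The background at that p was 13.1% of all tested genes by limma, 6.33% lower and 6.81% higher, and 6.29% lower by edgeR. With the replicate number as a block 20 members were lower at that p (7.71% of all). The 15 were Ccnb1, Cdc25c, Cdc20, Kif11, Kif14, Kif18a, Kif2c, Cenpe, Nuf2, Ndc80, Smc2, Tpx2, Hmmr, Anln and Ect2. For 19 members every treated library lay below every control, and for 0 above; 10.9% of all tested genes were separated downward and 11.1% upward. These genes are transcribed together and are not independent of one another, so the counts do not add up as separate observations. DESeq2 called Ccnb1, Kif18a and Tpx2, all lower (1.37% of tested genes were called lower), and limma with array quality weights called 13 members (4.72% lower) and had 28 lower at an unadjusted p under 0.05 (12.7% of all). In the authors' deposited table Ccnb1 alone of the 42 had an adjusted p under 0.05, with a log2 fold change of -0.23 and an adjusted p of 0.0486 (1.33% of genes with an adjusted p there were called lower).

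**Figure D2:**
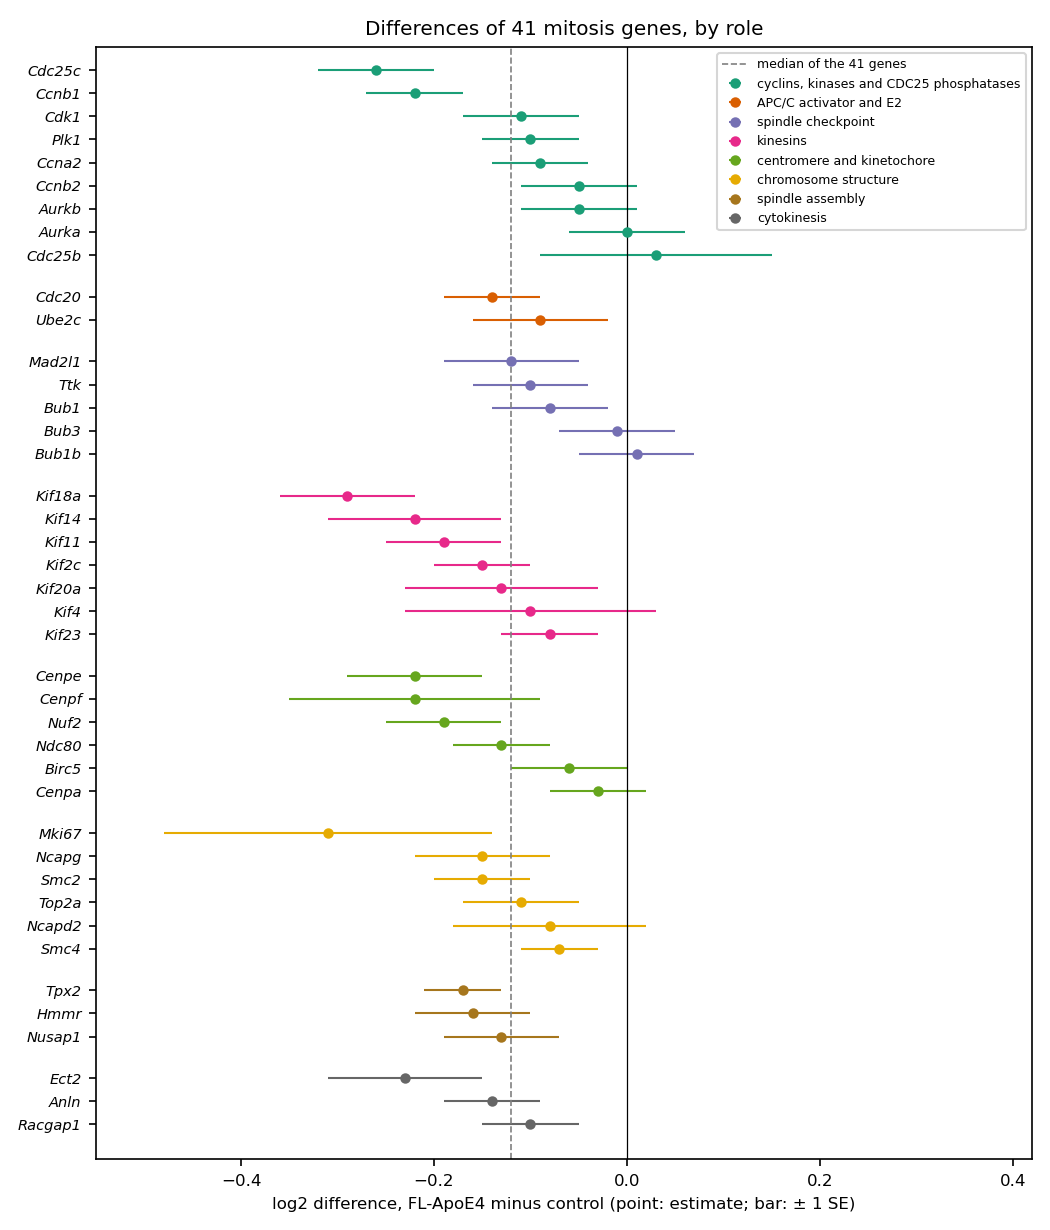
Log2 difference of FL-ApoE4 minus control for the 41 tested mitosis genes, by role; points are limma estimates, bars are 1 SE to each side, and the dashed line is the median of the 41 genes. Of the 41 points, 38 lie below 0, from -0.31 for Mki67, whose bar is the longest, to 0.03 for Cdc25b.

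The libraries were not equally alike, and this bears on every value here. Libraries held 45700128 to 54965393 reads assigned to genes. For 6 of the 41 tested members, Cdc25b, Cdc25c, Ndc80, Nuf2, Racgap1 and Ttk, the SD between replicates of at least 1 group was below the square root of its mean, the SD that counting alone would give. Control replicate 1 stands apart from the other controls (limma called 651 of all tested genes without it and 0 with it), and FL-ApoE4 replicate 1 departs from the other treated libraries in a way that moves with transcript length. The median of the 41 members, relative to the mean of the controls, was -0.04, -0.02 and 0.05 in the controls, in order of replicate number, and -0.12, -0.11 and -0.11 in the treated libraries. All 3 treated libraries thus lay below all 3 controls by this measure, while the median over all tested genes stayed within 0.01 of 0. Among the treated libraries 33, 38 and 39 of the 41 genes lay below the control mean.

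**Figure D3:**
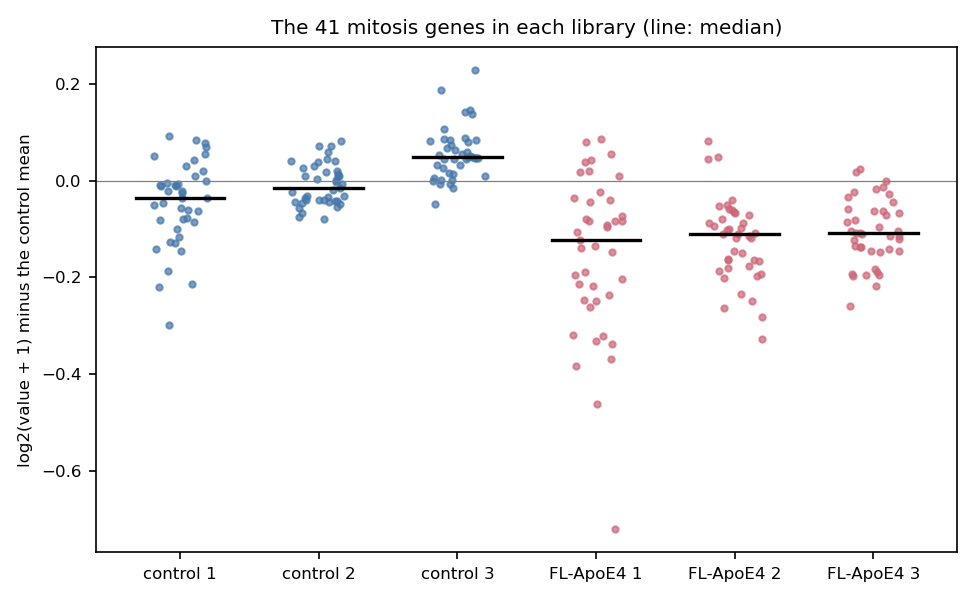
Each point is 1 of the 41 mitosis genes in 1 library, as log2(value + 1) minus the mean of the 3 controls, and each line is the median of a library. The treated medians are -0.12, -0.11 and -0.11 and the control medians -0.04 to 0.05; FL-ApoE4 replicate 1 has the widest scatter.

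Leaving out libraries moved the counts more than the size of the difference. Without control replicate 1, 4 members fell by limma, Kif18a (log2 difference -0.35, adjusted p = 0.0211), Ect2 (-0.30, adjusted p = 0.0297), Kif14 (-0.32, adjusted p = 0.0374) and Kif11 (-0.23, adjusted p = 0.0404), where 1.69% of all tested genes were called lower. By edgeR 4 members were called without that library (1.9% of all lower), and 23 were lower at an unadjusted p under 0.05 (8.77% of all). In the limma fit 23 members were lower at an unadjusted p under 0.05 (8.95% of all). Without control replicate 3 that count was 7 (5.45% of all), without FL-ApoE4 replicate 2 it was 9 (3.93% of all), and without FL-ApoE4 replicate 1 it was 15 (4.87% of all), with 0 called at the adjusted p in each. The median difference stayed between -0.14 and -0.11 over the 6 fits that leave out 1 library. Ccnb1, Cdc25c, Cenpe, Kif11, Kif18a, Nuf2 and Tpx2, 7 members in all, kept an unadjusted p under 0.05 in all 6. The share of all tested genes that did so was not counted.

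Without both control replicate 1 and FL-ApoE4 replicate 1, a choice made after the data were seen, 22 of 41 members fell by limma (5.53% of all tested genes were called lower), 33 were lower at an unadjusted p under 0.05 (12.4% of all) and the median was -0.14. That fit compares 2 libraries with 2, chosen with their values known, so its p-values may be too small. Libraries did not overlap for 35 members in it, against 27.6% of all tested genes, and for 29 without control replicate 1 alone, against 19.7%.

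Cyclins, kinases and CDC25 phosphatases, which drive entry into mitosis, comprised 9 genes with a median difference of -0.09. Of these, 7 were below 0, and 2 were lower at an unadjusted p under 0.05 (6.33% of all tested genes). Without control replicate 1 that count was 4 (8.95% of all), and without FL-ApoE4 replicate 1 it was 3 (4.87% of all). Values of single genes are given for replicates 1, 2 and 3 in that order. Ccnb1 encodes cyclin B1, the partner of CDK1, and had normalised reads of 8981, 8054 and 8519 in controls and of 7323, 7096 and 7430 with FL-ApoE4. Every treated library was below every control, and the log2 difference was -0.22 ± 0.05 (SE), or 14.4% lower (limma adjusted p = 0.189). Cdc25c, the phosphatase that activates CDK1 at mitotic entry, was at 785, 769 and 820 in controls and at 667, 651 and 661 with FL-ApoE4. The treated libraries lay close together and all below the controls, with a difference of -0.26 ± 0.06, or 16.6% lower (limma adjusted p = 0.19).

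Cdk1, the kinase that cyclins A and B activate, was at 8702, 8064 and 8367 in controls and at 8171, 7466 and 7591 with FL-ApoE4. FL-ApoE4 replicate 1 lay within the range of the controls, and the difference was -0.11 ± 0.06 (limma adjusted p = 0.442). Ccna2, which encodes the S and G2 phase cyclin A2, was at 12552, 13148 and 13505 and at 12323, 12026 and 12438, without overlap but with a difference of only -0.09 ± 0.05. Plk1, the polo-like kinase of spindle poles and kinetochores, was at 7768, 8001 and 8595 and at 7683, 7493 and 7491. Its groups were also separate, by a narrow gap, and differed by -0.10 ± 0.05. Ccna2 and Plk1 each passed limma only when both replicate 1 libraries were left out (adjusted p = 0.0318 and 0.0295).

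The remaining members of the group overlapped between the groups. Cyclin B2, encoded by Ccnb2, differed by -0.05 ± 0.06 (-0.08 without FL-ApoE4 replicate 1), which is a smaller estimate than that of Ccnb1, although the difference between these paralogs was not tested. Aurka, the kinase of the centrosome cycle, was at 9341, 9045 and 9849 in controls and at 9938, 9081 and 9289 with FL-ApoE4, with a difference of 0.00 ± 0.06. The sign of the Aurka difference changed with the setting. Aurkb, the kinase of the chromosomal passenger complex, differed by -0.05 ± 0.06 (-0.09 without control replicate 1). Cdc25b, a phosphatase acting earlier than Cdc25c, was at 3689, 4764 and 5314 in controls and at 4594, 4695 and 4614 with FL-ApoE4. Here control replicate 1 alone was low, and the difference went from 0.03 ± 0.12 to -0.12 without it.

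**Figure D4:**
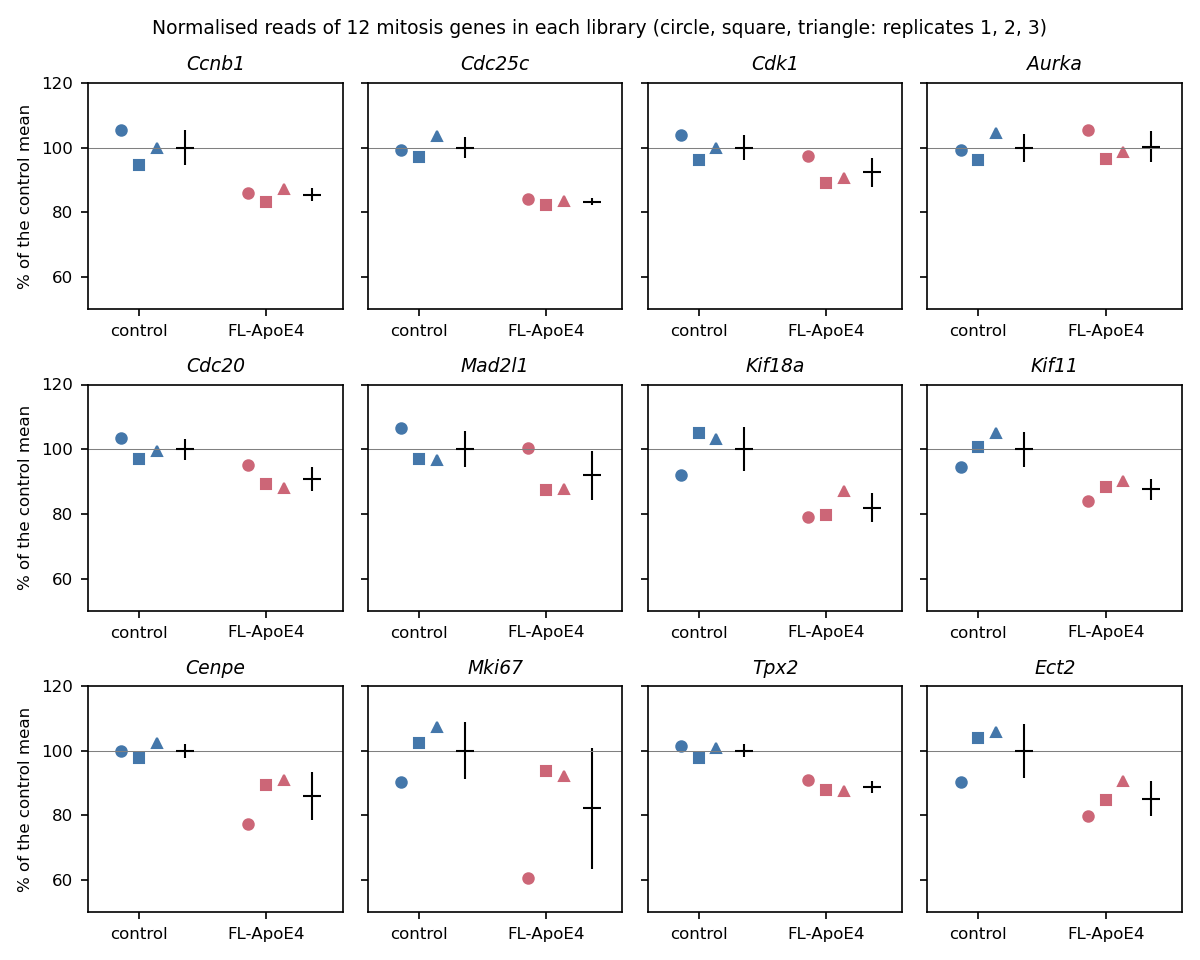
Normalised reads of 12 mitosis genes in each library as a percentage of the mean of the 3 controls; circles, squares and triangles are replicates 1, 2 and 3, and the bars beside them are the mean with its SD (n = 3). Treated libraries lie below all controls for Ccnb1, Cdc25c, Cdc20, Kif18a, Kif11, Cenpe and Tpx2, and overlap them for Cdk1, Aurka, Mad2l1, Mki67 and Ect2.

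Both genes of the anaphase-promoting complex pathway in the module were below 0. Cdc20, the activator that targets cyclin B1 and securin for destruction, was at 9252, 8667 and 8893 in controls and at 8498, 7973 and 7869 with FL-ApoE4. Its groups were separate and differed by -0.14 ± 0.05 (limma adjusted p = 0.318). Ube2c, the ubiquitin-conjugating enzyme of the complex, was at 9434, 8894 and 9171 and at 9513, 8196 and 8269. FL-ApoE4 replicate 1 was the highest of the 6 libraries for Ube2c and the other two treated libraries the lowest, giving -0.09 ± 0.07, -0.15 without that library and -0.06 without control replicate 1.

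The 5 spindle checkpoint genes had a median difference of -0.08. Of these, 4 were below 0, and 0 reached an unadjusted p under 0.05 by limma (6.33% of all tested genes were lower). Libraries were separate for 0 of the 5 (10.9% of all were separated downward). Without control replicate 1, 1 was lower at that p (8.95% of all). Without FL-ApoE4 replicate 1 it was also 1 (4.87% of all), and without both it was 2 (12.4% of all). Mad2l1, which encodes the checkpoint protein MAD2, had the lowest p of the group and was at 5421, 4939 and 4925 in controls and at 5121, 4456 and 4467 with FL-ApoE4. Replicate 1 was the highest library of its group on both sides, and the difference was -0.12 ± 0.07. Mad2l1 was at -0.19 without FL-ApoE4 replicate 1, -0.08 without control replicate 1 and -0.05 after correcting each library for length and GC, and it fell without both replicate 1 libraries (-0.14, limma adjusted p = 0.0206). Ttk, the checkpoint kinase MPS1, was at 2475, 2677 and 2818 and at 2481, 2459 and 2506, a difference of -0.10 ± 0.06 (-0.15 without control replicate 1). Bub1, a kinetochore kinase, differed by -0.08 ± 0.06 (-0.05 without FL-ApoE4 replicate 1). Bub3, its partner, and Bub1b, which encodes BUBR1, were at -0.01 ± 0.06 and 0.01 ± 0.06, with signs that changed between settings.

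Mitotic kinesins, the motors that build and move the spindle, were all below 0, with a median of -0.15 over 7 genes. At an unadjusted p under 0.05, 4 were lower (6.33% of all tested genes), and the same number were lower without control replicate 1 (8.95% of all). Kif18a, which limits the oscillation of chromosomes at the metaphase plate, was at 1727, 1966 and 1932 in controls and at 1481, 1493 and 1633 with FL-ApoE4. The groups were separate, and the difference of -0.29 ± 0.07, or 18% lower (limma adjusted p = 0.2), was the largest estimate of the 7 kinesins. Kif11, the motor that pushes spindle poles apart, was at 10304, 10978 and 11475 and at 9178, 9656 and 9861. Control replicate 1 was the lowest control for both genes, and Kif11 differed by -0.19 ± 0.06 (limma adjusted p = 0.235).

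Kif2c, a microtubule depolymerase at centromeres, was at 4496, 4387 and 4655 in controls and at 4144, 3938 and 4142 with FL-ApoE4, a difference of -0.15 ± 0.05 without overlap. Kif14, a motor of the late spindle and midbody, was at 3019, 3544 and 3787 and at 2730, 2986 and 3122. Control replicate 1 fell among the treated values, and the difference of -0.22 ± 0.09 became -0.32 without it. Kif23, a subunit of centralspindlin, was at 6601, 6831 and 7037 and at 6211, 6576 and 6531, separate by a narrow gap, at -0.08 ± 0.05. Kif20a, a motor of the central spindle, and Kif4, a chromosome-bound motor, differed by -0.13 ± 0.10 and -0.10 ± 0.13. Kif20a was at -0.04 without FL-ApoE4 replicate 1 and at -0.20 without control replicate 1. Kif4 had a difference of 0.04 without FL-ApoE4 replicate 1, in which it was at 323 normalised reads against 446 and 421 in the other treated libraries.

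All 6 centromere and kinetochore genes were below 0, with a median of -0.16. At an unadjusted p under 0.05, 3 were lower (6.33% of all tested genes). Cenpe, the kinetochore motor that brings chromosomes to the plate, was at 9041, 8859 and 9260 in controls and at 7012, 8081 and 8239 with FL-ApoE4. Its libraries were separate, FL-ApoE4 replicate 1 lay far below the other treated ones, and the difference was -0.22 ± 0.07 (limma adjusted p = 0.244), or -0.15 without that library. Nuf2 and Ndc80, which together form the microtubule-binding arm of the NDC80 complex, had alike estimates. Nuf2 was at 3629, 3742 and 3721 and at 3437, 3112 and 3181, and Ndc80 at 3209, 3250 and 3317 and at 3075, 2939 and 2948. Both were separate between the groups, with differences of -0.19 ± 0.06 for Nuf2 (limma adjusted p = 0.228) and -0.13 ± 0.05 for Ndc80 (0.339).

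Cenpf, a large kinetochore and nuclear matrix protein, was at 7170, 8464 and 9469 in controls and at 6037, 7772 and 7715 with FL-ApoE4. Replicate 1 was the lowest library of each group, and the difference of -0.22 ± 0.13 became -0.10 without FL-ApoE4 replicate 1 and -0.33 without control replicate 1. Birc5, which encodes survivin of the chromosomal passenger complex, differed by -0.06 ± 0.06 (-0.11 without FL-ApoE4 replicate 1). Cenpa, the histone H3 variant that marks centromeres, differed by -0.03 ± 0.05 (-0.07 without that library), with overlapping libraries for both.

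Chromosome structure genes were below 0 in 6 of 6, with a median of -0.13. At an unadjusted p under 0.05, 1 was lower (6.33% of all tested genes), and 4 were without control replicate 1 (8.95% of all). Smc2, a core subunit of condensin, was at 8255, 7970 and 8379 in controls and at 7067, 7411 and 7626 with FL-ApoE4, separate, with a difference of -0.15 ± 0.05 (limma adjusted p = 0.259). Its partner Smc4 was at 16811, 16197 and 16394 and at 15964, 15436 and 15512, also separate, at -0.07 ± 0.04. The condensin subunit Ncapg was at 3877, 4178 and 4232 and at 3473, 3609 and 3969, with overlap, at -0.15 ± 0.07. Its difference was -0.19 without control replicate 1 and -0.11 without FL-ApoE4 replicate 1. Ncapd2, also a condensin subunit, differed by -0.08 ± 0.10. Ncapd2 was at -0.19 without control replicate 1 and at -0.03 without FL-ApoE4 replicate 1. Top2a, the topoisomerase that untangles sister chromatids, was at 33895, 30652 and 32432 and at 28323, 30744 and 30825. Its groups overlapped, since control replicate 2 lay below 2 treated libraries, and its difference was -0.11 ± 0.06, -0.07 when replicate 1 of one group was left out and -0.03 without both.

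Mki67, which encodes the proliferation marker Ki-67, had the largest estimate and the largest error of the module. It was at 44209, 50177 and 52608 normalised reads in controls and at 29673, 45982 and 45140 with FL-ApoE4. FL-ApoE4 replicate 1 was far below every other library, and control replicate 1 was below the remaining treated libraries, so the groups overlapped. The difference was -0.31 ± 0.17 (limma adjusted p = 0.482), -0.10 without FL-ApoE4 replicate 1 and -0.17 without replicate 1 of both groups.

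Spindle assembly genes were lower in all 3 tested members, with a median of -0.16. Libraries did not overlap in any of the 3 (10.9% of all tested genes were separated downward). Tpx2, the microtubule-binding activator of Aurora A, was at 20401, 19645 and 20304 in controls and at 18271, 17677 and 17604 with FL-ApoE4. The spread within each group was small, and the difference was -0.17 ± 0.04, or 11.3% lower (limma adjusted p = 0.194). Hmmr, which encodes a spindle pole protein, was at 7452, 7341 and 7897 and at 6306, 7054 and 7036, a difference of -0.16 ± 0.06 (-0.10 without FL-ApoE4 replicate 1). Nusap1, which bundles microtubules near chromatin, was at 3057, 3148 and 3297 and at 2986, 2933 and 2764, a difference of -0.13 ± 0.06.

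Prc1, the microtubule crosslinker of the central spindle and the fourth gene of that group, was not tested. It was at 3.26, 6.64 and 3.77 normalised reads in controls and at 3.35, 4.64 and 0.979 with FL-ApoE4, far below every other member and under the filter. In the GENCODE M21 annotation of GRCm38, 9 of the 42 genes overlap a gene with a mean of at least 10 on the opposite strand. These are Prc1 with Rccd1, Ccna2 with Exosc9, Cdc25b with Spef1, Cdc20 with Elovl1, Kif20a with Cdc23, Kif4 with Pdzd11, Kif18a with Mettl15, Ncapg with Lcorl and Nusap1 with Oip5. The library kit keeps strand, but the strand setting of the counting is not given in the sources used here, so the values of these 9 are uncertain.

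Cytokinesis genes were below 0 in 3 of 3, with a median of -0.14. Ect2, the exchange factor that activates RhoA at the cell equator, was at 4862, 5586 and 5684 in controls and at 4296, 4564 and 4876 with FL-ApoE4. Control replicate 1 lay just below the highest treated library, and the difference was -0.23 ± 0.08 (limma adjusted p = 0.276). Anln, which encodes the ring scaffold anillin, was at 9395, 9132 and 9800 and at 8203, 8698 and 8827, separate at -0.14 ± 0.05. Racgap1, the partner of Kif23 in centralspindlin, was at 8243, 8652 and 8898 and at 8061, 7972 and 7977, separate at -0.10 ± 0.05. Of the 3 cytokinesis genes, 2 were lower at an unadjusted p under 0.05 (6.33% of all tested genes). That count was 3 without control replicate 1 (8.95% of all) and 0 without FL-ApoE4 replicate 1 (4.87% of all).

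Transcript length moved with the departure of FL-ApoE4 replicate 1. Over the 41 members, the log2 difference of that library from the other treated libraries correlated with the longest annotated transcript at -0.51 (Spearman, across genes, which share the libraries and are not independent), and over 12959 tested genes of known length at -0.46. The corresponding values over the members were -0.17, 0.28 and 0.03 for control replicates 1, 2 and 3, each against the other controls. The members with the longest transcripts were Cenpf (11.13 kb) and Mki67 (10.06 kb), which lay -0.36 and -0.62 from the other treated libraries. Mad2l1, also long at 7.56 kb, went the other way and lay 0.20 from them. Correcting each library for its trend with length and GC content left the median of the members at -0.10, with 41 of 41 below 0. The median of all tested genes was then -0.01, with 7345 of 14079 below 0. At an unadjusted p under 0.05, 15 members were lower (7.73% of all tested genes). With that correction Mki67 was at -0.24 and Cenpf at -0.13, and Ccnb1 kept -0.22 (limma adjusted p = 0.0959).

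**Figure D5:**
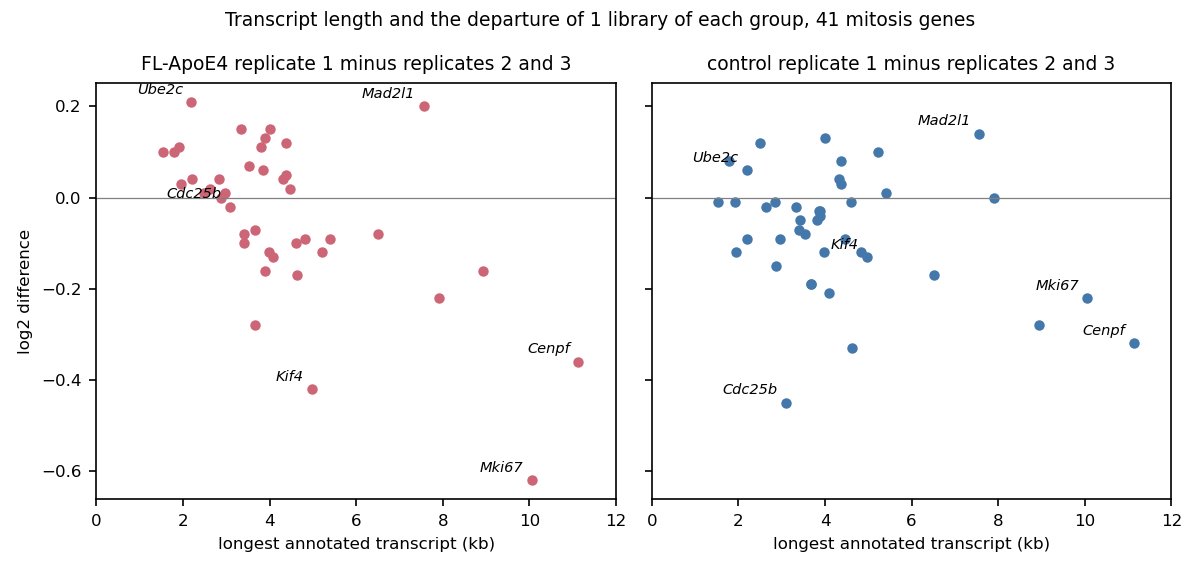
Departure of replicate 1 from the other replicates of its group (log2, y axis) against the longest annotated transcript in kb (x axis) for the 41 mitosis genes, with FL-ApoE4 on the left and control on the right. In FL-ApoE4 replicate 1 the longest transcripts, Mki67 and Cenpf, lie at -0.62 and -0.36, while Ube2c lies at 0.21. Mad2l1, long at 7.56 kb, goes against that trend and lies at 0.20.

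Per kilobase of annotated exon, levels within the module spanned a wide range. The mean over the 6 libraries was 4564 normalised reads per kb for Cdc20, 4436 for Mki67 and 4059 for Tpx2, the highest of the tested members. The lowest tested members were Kif4 at 74.2, Cdc25c at 147 and Kif18a at 173 normalised reads per kb. Exon lengths come from GENCODE M21 and not from the annotation the authors used, so these levels are approximate. Cdc25c and Kif18a at the low end and Ccnb1 (1874) and Tpx2 at higher levels were all among the 7 genes that kept an unadjusted p under 0.05 whichever library was left out.

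Further genes, from lists chosen by role, were read from the same fit. Over 105 tested genes of 6 further G2/M lists, 80 were below 0 (49.7% of all tested genes) and the median was -0.08. Libraries were separated downward for 33 of the 105 (10.9% of all) and upward for 0 (11.1% of all). At an unadjusted p under 0.05, 26 were lower (6.33% of all) and 0 higher. Without control replicate 1, 44 were lower at that p (8.95% of all), and without both replicate 1 libraries 54 were (12.4% of all). By list, 7 of 25 further kinetochore and passenger genes, 5 of 16 further kinesin and spindle genes, 4 of 12 further condensin, cohesin and separase genes and 7 of 22 further G2/M regulators were lower at that p. Spdl1, which recruits dynein to kinetochores, was at 4938, 4994 and 4765 in controls and at 3808, 3757 and 4132 with FL-ApoE4, a difference of -0.33 ± 0.06 (limma adjusted p = 0.112). Cenpi, of the constitutive centromere network, was at 3006, 3059 and 3073 and at 2567, 2583 and 2529, a difference of -0.25 ± 0.05. Dsn1, a subunit of the MIS12 complex, was at 2324, 2340 and 2184 and at 1897, 1830 and 1977, or -0.26 ± 0.06. Spdl1, Cenpi and Dsn1 were each separate between the groups. Spdl1 and Cenpi fell without control replicate 1 (limma adjusted p = 0.0186 and 0.0239), as did Incenp, the scaffold of the passenger complex (-0.23, adjusted p = 0.0475). They were 3 of the 105 genes, where 1.69% of all tested genes were called lower.

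In the other lists of that kind, the genes of lowest p also had negative differences. Among spindle genes these were Spag5, which encodes astrin (-0.20 ± 0.07), and the augmin subunit Haus6 (-0.15 ± 0.06). That list also held Kif3a (-0.16 ± 0.05), its gene of lowest p, which encodes a kinesin-2 subunit known for transport in cilia and of organelles and not as a motor of the spindle. Among cohesion genes they were the cohesin subunit Rad21 (-0.15 ± 0.04), Espl1, which encodes separase (-0.21 ± 0.06), and the cohesin protector Sgo2a (-0.16 ± 0.05). Among further regulators they were the abscission gene Cep55 (-0.21 ± 0.05), the centriole kinase Plk4 (-0.19 ± 0.05) and the CDK subunit Cks2 (-0.28 ± 0.09). Cks2 was at 1616, 1296 and 1353 in controls and at 1149, 1181 and 1167 with FL-ApoE4, with control replicate 1 the highest, and its difference was -0.18 without that library.

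Subunits and inhibitors of the anaphase-promoting complex itself had a median of 0.01 (-0.01 without control replicate 1), with 6 of 16 below 0. At an unadjusted p under 0.05, 2 were lower (6.33% of all tested genes). These 2 were Fzr1, which encodes the G1 activator CDH1 (-0.23 ± 0.06), and Fbxo5, which encodes the inhibitor EMI1 (-0.16 ± 0.05). Transcriptional regulators of G2/M genes had a median of -0.04 over 14 genes. Lin9 of the DREAM and B-MYB complexes (-0.21 ± 0.05) was the 1 gene lower at that p, a share near the 6.33% of all. Without control replicate 1, 4 were lower at that p (8.95% of all). Foxm1 was at 3366, 4157 and 4344 in controls and at 3706, 4164 and 4120 with FL-ApoE4, and Mybl2, which encodes B-MYB, differed by 0.01 ± 0.09. The Foxm1 difference of 0.02 ± 0.10 became -0.09 without control replicate 1, and that of Mybl2 -0.10. Pttg1, which encodes securin, and Wee1, the kinase that restrains CDK1, had positive differences of 0.07 ± 0.07 and 0.09 ± 0.07. Pttg1 was at 0.02 without FL-ApoE4 replicate 1, and Wee1 was at 0.02 without control replicate 1.

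Among CDK inhibitors and checkpoint brakes, 5 of 13 tested genes were lower at an unadjusted p under 0.05 (6.33% of all) and 1 higher (6.81% of all). Cdkn1a, which encodes the CDK inhibitor p21, was at 11034, 6078 and 5181 in controls and at 3769, 3335 and 3917 with FL-ApoE4. The groups were separate, control replicate 1 was far above the other controls, and the difference was -0.94 ± 0.25 (limma adjusted p = 0.205). Gadd45a, a stress-induced inhibitor of CDK1 activity, was at 1242, 696 and 552 and at 345, 286 and 377, a difference of -1.22 ± 0.28 (0.166). Without control replicate 1, Cdkn1a (-0.61, limma adjusted p = 0.00655), Gadd45a (-0.89, adjusted p = 0.00963) and the antiproliferative gene Btg2 (-0.53, adjusted p = 0.0299) fell. In that fit 1.69% of all tested genes were called lower. The gene that was higher was Gadd45g (0.28 ± 0.11), named here because it was the exception.

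Genes of G1/S and DNA replication, the neighbouring phase, had a median of -0.07 over 41 tested genes, with 36 below 0 (49.7% of all). Libraries were separated downward for 12 of the 41 (10.9% of all) and upward for 1 (11.1% of all). At an unadjusted p under 0.05, 7 were lower (6.33% of all) and 1 higher (6.81% of all). Without control replicate 1, 18 were lower at that p (8.95% of all). Without both replicate 1 libraries 23 of the 41 were called lower (5.53% of all) and 29 were lower at an unadjusted p under 0.05 (12.4% of all). The values stand beside those of the mitosis genes without a test of the difference between the lists. Cdc45, a subunit of the replicative helicase, was at 5011, 4797 and 4905 in controls and at 4151, 3928 and 4092 with FL-ApoE4, separate at -0.27 ± 0.05. The replication factor Mcm10 and the ribonucleotide reductase subunit Rrm2 differed by -0.18 ± 0.05 and -0.17 ± 0.05. The higher gene was Ccnd1, which encodes the G1 cyclin D1 and was named after its value was seen, at 3922, 6264 and 6560 in controls and at 7783, 8388 and 8160 with FL-ApoE4 (0.57 ± 0.18). Without control replicate 1, limma called 3 of the 41 lower (1.69% of all tested genes) and 1 higher (413 of 14079 genes). Ccnd1 rose (0.34, limma adjusted p = 0.00961). Cdc45 (-0.26, adjusted p = 0.0256), Mcm2 (-0.22, adjusted p = 0.04) and Uhrf1 (-0.26, adjusted p = 0.0424) fell. Cdk2, Cdc16, Cenpn, Nfyb and Cdkn2b are listed at 0 in all 6 libraries, which is reported only as listed.

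Markers of the labelled cell type were present. Of 13 microglia and macrophage markers, 12 had a mean of at least 10 normalised reads, and P2ry12 was listed at 0 in all libraries. Their summed level was 208757 to 211845 in controls and 230759 to 237689 with FL-ApoE4, so it moved with the group, and its part in the differences of the mitosis genes was not tested. Lists of neuronal, astrocyte, oligodendrocyte, fibroblast, endothelial and lymphocyte markers had 0 to 3 of 5 genes at that level. Their sums were low except where Mbp (1059 to 1191) and Kdr (2981 to 4750) carried them.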

How the data were processed

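Directional libraries from 3 control and 3 FL-ApoE4 samples were sequenced; the submitters' processing notes name HISAT2 2.2.1, the build GRCm39, HTSeq, DESeq2 1.30.1 and FastQC 0.11.8, with no roles given. The signal values deposited by the authors behave as gene counts divided by 1 factor per library: whole reads were recovered for 100% of values (tolerance 0.01) and used for edgeR and DESeq2. The authors' deposited table also gives log2 fold changes and p-values. The strand setting of counting is not given in the sources used here.

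Normalised reads were tested as log2(value + 1) with limma 3.58.1 (R 4.3.3, trended variance) over 14079 genes with a mean of at least 10, without a replicate block, and Benjamini-Hochberg adjustment over all of them at 0.05. Alternatives used edgeR 4.0.16, DESeq2 1.42.0, other scalings, filters and pseudocounts, weights, a length and GC correction, and each library left out. Scripts were tested on simulated data with changes larger than those of the mitosis genes, so that test does not bear on differences this small. Members and lists were chosen with earlier results of these data known. Members were described in full where they had one of the 2 lowest p-values of a role group or did not overlap between groups; up to 3 genes of lowest p came from each other list, plus Foxm1, Mybl2, Cdkn1a, Wee1, Pttg1 and Incenp. Further members whose values are given stand beside these. The TTTAAA search, the fit without both replicate 1 libraries and edgeR without control replicate 1 were added after the data were seen.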

Additional observations from a re-analysis of the deposited data

How the results depend on the processing

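The median of the 41 mitosis genes stayed between -0.14 and -0.10 under every alternative. The number of all genes called by limma was 0, and it was 1 with no filter, 390 with DESeq2, 1551 with array quality weights, 18 with the length and GC correction, 0 to 651 when 1 library was left out, 1767 without both replicate 1 libraries and 691 with edgeR without control replicate 1. The number of mitosis genes called was 3 with DESeq2, 13 with array quality weights, 0 to 4 when 1 library was left out, 22 without both replicate 1 libraries and 4 with edgeR without control replicate 1. The number of mitosis genes at an unadjusted p under 0.05, in either direction, was 15. It was 10 by limma without trend, 11 with equal totals and 12 with quantile normalisation. For these settings the share of all tested genes was not counted. The number was 28 with array quality weights and 7 to 23 when 1 library was left out. Without both replicate 1 libraries it was 33, and with edgeR without control replicate 1 it was 23. The causes were not tested.

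Signs changed for 5 genes whose difference lay near 0 or followed 1 library. Cdc25b was at -0.06 with array quality weights, -0.01 with the length and GC correction, -0.12 in edgeR without control replicate 1, -0.11 without both replicate 1 libraries and between -0.12 and 0.14 when 1 library was left out. Aurka was at -0.00011 with DESeq2, -0.01 with weights, -0.03 with the length and GC correction, -0.04 without both replicate 1 libraries and -0.0013, -0.02 and -0.03 when, in turn, the first or the second control or the first treated library was omitted. Bub1b was at -0.02 with weights, -0.01 with the length and GC correction, -0.03 without both replicate 1 libraries, -0.05 with edgeR without control replicate 1, and -0.06 and -0.01 without control replicate 1 and FL-ApoE4 replicate 2. Bub3 was at 0.0046 with quantile normalisation, 0.0018 with equal totals, 0.03 without control replicate 1 (also in edgeR) and 0.01 without FL-ApoE4 replicate 2 or 3. Kif4 was at 0.04 without FL-ApoE4 replicate 1 and at -0.19 without FL-ApoE4 replicate 2.

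With the replicate number as a block, limma called 0 genes and 0 mitosis genes, 20 mitosis genes were lower at an unadjusted p under 0.05 (7.71% of all tested genes) and the median was -0.12. Deviations of same-numbered samples correlated at 0.13, 0.07 and -0.03. Control replicates 1 and 2 correlated best with the treated sample of the same number, and control replicate 3 with FL-ApoE4 replicate 2. The labels name no batch, and whether same-numbered samples were handled together was not tested. Counting error was above the spread between replicates in at least 1 group for 6 members, among them Cdc25c, whose treated SD of 8.21 at a mean of 660 is below the 25.7 that counting alone would give.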
